A study of Mus musculus with 30 samples.

Results

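The mouse mitochondrial genome carries 37 genes, and all 37 were rows of the HL-1 count table. They were taken as every gene whose chromosome column read MT, which gave 37 of the 54532 genes of the table, namely 13 mRNAs, 2 rRNAs and 22 tRNAs. Of these, 25 had enough counts to be tested (all 13 mRNAs, both rRNAs and 10 tRNAs), 12 tRNAs did not, and 4 of those 12 had 0 counts in every library.

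HL-1 is a mouse line derived from an atrial heart tumour, and every library came from this 1 line. The Ctrl cultures were untreated. The FK cultures received FK866, an inhibitor of NAMPT, the enzyme that recycles nicotinamide into NAD+. The FKNR cultures received FK866 and nicotinamide riboside (NR), a precursor that cells turn into NAD+ without NAMPT, and the FKNREx cultures received FK866, NR and Ex527, an inhibitor of the NAD+-dependent deacetylase SIRT1. Each group had 3 libraries of poly(A)-selected RNA, so the rRNA and tRNA values are those of the molecules that entered such libraries. No group received NR or Ex527 without FK866. The study's methods describe replicates of cultured cells as separately cultured wells, so p-values measure the spread between wells of 1 line.

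Mitochondrial DNA is transcribed from both strands as long RNAs that span many genes. The rRNAs and mRNAs are freed largely by cutting out the tRNAs that lie between them, so that levels of genes on 1 long RNA then depend on the stability of each product. The 13 proteins are core subunits of complexes I, III and IV and of the ATP synthase, which are completed by subunits encoded in the nucleus, and the rRNAs and tRNAs serve their translation inside the organelle.

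The cells were checked against markers of heart muscle and of other cell types. CPM here is a count scaled by the library's total over tested genes and by its TMM factor, which adjusts for composition. Of 12 markers of atrial and cardiac muscle, 11 never exceeded 4 CPM, with Actc1 at 0 in all 12 libraries. Only Gata4 was well above that, at 81.6 to 117 CPM. Among 6 fibroblast markers, Col3a1 ran from 1888 to 3249 CPM, Col1a1 from 466 to 763 and Dcn from 97.5 to 183. Pdgfra ran lower, from 12.1 to 32.9, and Col1a2 from 10.8 to 32.1, while Lum stayed under 1 CPM. The 4 endothelial markers stayed under 4 CPM, as did 3 of 4 macrophage markers, with Cd68 at 8.48 to 13.2. These libraries thus did not show the heart muscle markers that the label cardiomyocyte calls for, and the cells are named here by their label only. The libraries held 21337922 to 35000109 counts, of which 324594 to 771876 were mitochondrial.

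Sequences are shown for genes on which the results turn, read from GENCODE M21 on GRCm38, 5′ to 3′ and as DNA letters. The first pair are short mRNAs that overlap a longer neighbour, with the shared bases in capitals. For mt-Atp8 (MT:7766-7969) the last 43 bases are also the first 43 of mt-Atp6, and for mt-Nd4l (MT:9877-10173) the last 7 are the first 7 of mt-Nd4. In such an overlap a count table can assign a read to either gene or to none.
mt-Atp8: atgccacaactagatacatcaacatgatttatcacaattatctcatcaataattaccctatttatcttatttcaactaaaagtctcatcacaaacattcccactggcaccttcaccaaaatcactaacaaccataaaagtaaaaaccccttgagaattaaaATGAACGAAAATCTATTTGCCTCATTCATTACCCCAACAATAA
mt-Nd4l: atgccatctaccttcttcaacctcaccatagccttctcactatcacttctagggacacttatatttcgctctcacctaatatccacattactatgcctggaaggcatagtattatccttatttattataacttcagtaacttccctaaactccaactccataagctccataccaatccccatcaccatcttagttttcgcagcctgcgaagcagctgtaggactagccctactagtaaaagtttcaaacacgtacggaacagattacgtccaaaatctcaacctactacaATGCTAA

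The next pair show how close a nuclear copy of a mitochondrial gene can be. They are the first 90 bases of mt-Nd3 (MT:9459-9548, plus strand) and of Gm28438, an annotated nuclear copy on chromosome 1 (chr1:24613030-24613119, minus strand). The capital marks the single difference over 345 aligned bases, T3C, counted from 1 at the 5′ end of mt-Nd3.
mt-Nd3: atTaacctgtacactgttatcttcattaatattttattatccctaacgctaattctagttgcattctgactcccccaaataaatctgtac
Gm28438: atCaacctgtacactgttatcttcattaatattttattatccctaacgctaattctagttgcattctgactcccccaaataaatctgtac

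The last pair are the tRNAs that passed an adjusted p of 0.05 in FK against Ctrl, and are printed in lower case throughout. The tRNA for leucine mt-Tl1 (MT:2676-2750) lies between mt-Rnr2 and mt-Nd1, and the tRNA for tryptophan mt-Tw (MT:4950-5016) overlaps the end of mt-Nd2 by its first bases.
mt-Tl1: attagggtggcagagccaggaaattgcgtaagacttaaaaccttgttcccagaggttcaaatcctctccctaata
mt-Tw: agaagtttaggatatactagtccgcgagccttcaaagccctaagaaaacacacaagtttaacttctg

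Mitochondrial transcripts took a larger share of the counts under FK866 than in Ctrl and the largest under FK866 and NR. The share was 1.27, 1.53 and 1.39% in Ctrl, 1.90, 1.72 and 1.70% in FK, 2.73, 2.58 and 2.15% in FKNR and 2.15, 2.21 and 1.22% in FKNREx. The ranges of Ctrl, FK and FKNR did not overlap. In FKNREx, replicates 1 and 2 lay just above the lowest FKNR library, whereas replicate 3 lay below every Ctrl library. The group means ± SD (n = 3) were 1.40 ± 0.127, 1.77 ± 0.108, 2.49 ± 0.302 and 1.86 ± 0.557%, in that order, and a sum over these genes was not tested. The mRNAs made up most of the share, between 1.14 and 2.58% of all counts, against 0.0772 to 0.151% for the rRNAs.

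**Figure D1:**
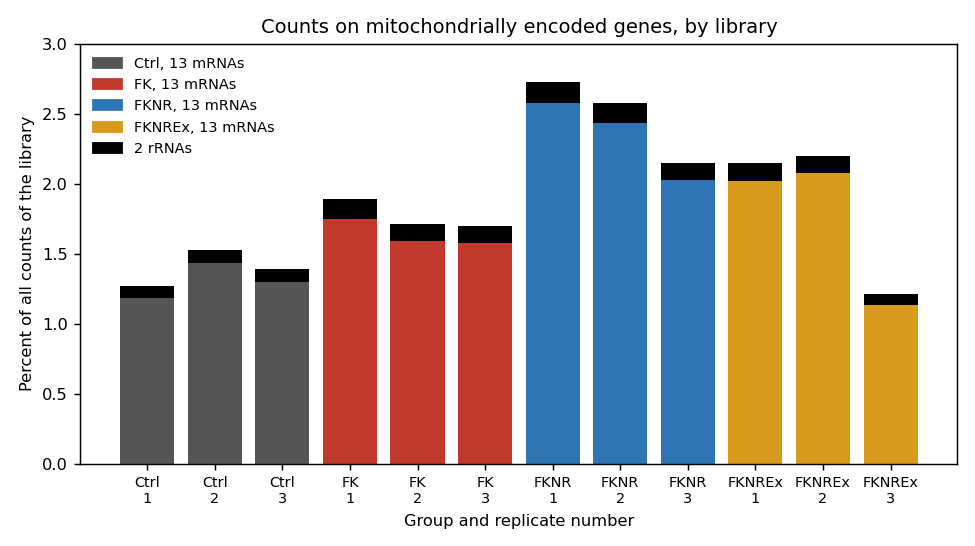
Each bar is 1 HL-1 library, grouped by treatment and numbered by replicate, and its height is the percent of all counts on the 13 mitochondrial mRNAs (colour) and 2 rRNAs (black). The mRNA part is highest in FKNR, at 2.58, 2.44 and 2.03%, and in the third FKNREx bar it is 1.14%, below 1.19, 1.43 and 1.295% in Ctrl.

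FKNREx replicate 3 stood apart in these genes and in their nuclear copies on chromosome 1, described below. The copies summed to 295 CPM in it, the lowest of all 12 libraries, against 408 and 382 in the other FKNREx libraries. It had 28284750 counts, a TMM factor of 0.984 (range over all libraries 0.982 to 1.02) and 97.8% of counts on protein-coding genes. Its summed CPM for nuclear complex I subunits was 2473, against 2465 and 2309 in the other FKNREx libraries. A second value that stood apart was mt-Atp8 in Ctrl replicate 1, described with the ATP synthase. The main fold changes that rest on either library are given with and without it.

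Counts of genes past the threshold were small, and most sat close to it. Calls used the limits of the study, an adjusted p under 0.01 together with a fold above 1.5 either way, here with edgeR's quasi-likelihood test on all tested genes with Benjamini-Hochberg adjustment. In FK against Ctrl 1 of 25 was called, mt-Atp8, which was lower, where 4.59% of all 14760 tested genes were called. In FKNR against FK 2 were called, mt-Nd4l and mt-Nd5, both higher, against 4.81% of all genes. For FKNR against Ctrl 6 were called against 0.901% of all genes, with mt-Nd4l, mt-Co1, mt-Nd5, mt-Cytb and mt-Nd2 higher and mt-Atp8 lower. The 3 comparisons share groups and are not independent of each other.

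At an adjusted p under 0.05 with no minimum fold, 4 genes were higher and 1 was lower in FK against Ctrl, where 12.2 and 12.6% of all genes were. In FKNR against FK 7 were higher and 0 lower, where 13.9 and 15% of all genes were, and in FKNR against Ctrl 13 were higher and 1 lower, where 11.1 and 12.8% of all genes were. The count at that threshold in FKNR against Ctrl, 13 of 25 higher, was the one furthest above its background. All 3 libraries of 1 group lay above all 3 of the other for 11 genes in FK against Ctrl (18.7% of all genes), for 12 in FKNR against FK (21.2%) and for 19 in FKNR against Ctrl (21.7%). In FK against Ctrl 2 genes lay wholly below, mt-Atp8 and mt-Atp6 (17.9% of all genes).

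The stricter calls changed with single libraries, and so did the share of all genes called. In FKNR against Ctrl 0 genes were called without Ctrl replicate 2 or 3, FK replicate 1, any 1 FKNR replicate, or FKNREx replicate 1 or 2, and in each of these fits 0 of all tested genes were called. The same comparison had 9 called without FK replicate 2 (2.14% of all genes), FK replicate 3 (1.94%) or FKNREx replicate 3 (0.503%). For FKNR against FK 0 were called without FK replicate 1 (3.80% of all genes), 1 without FKNR replicate 1 (3.89%) or 2 (4.32%), and 6 without FKNREx replicate 3 (4.68%). In FK against Ctrl 0 were called without FK replicate 1 (3.57% of all genes) and 4 without FKNREx replicate 3 (4.44%). The fold changes of the called genes kept their direction. Of 22 alternatives, 21 called mt-Nd4l in FKNR against FK and 16 called mt-Nd5. In FKNR against Ctrl, 12 called each of mt-Co1, mt-Nd5, mt-Cytb and mt-Nd4l, and 9 called mt-Nd2. Over 22 alternative analyses of FKNR against Ctrl, mt-Co1 ran from 1.00 to 1.200 on the log2 scale with adjusted p of 1.06e-09 to 0.0477, mt-Nd5 from 1.00 to 1.17 with 9.61e-10 to 0.0472, mt-Cytb from 0.84 to 1.05 with 3.31e-09 to 0.0472, mt-Nd2 from 0.52 to 0.68 with 2.9e-07 to 0.048, and mt-Nd4l from 1.38 to 1.62 with 1.06e-09 to 0.0469 (edgeR, and DESeq2 in 1 of the 22).

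**Figure D2:**
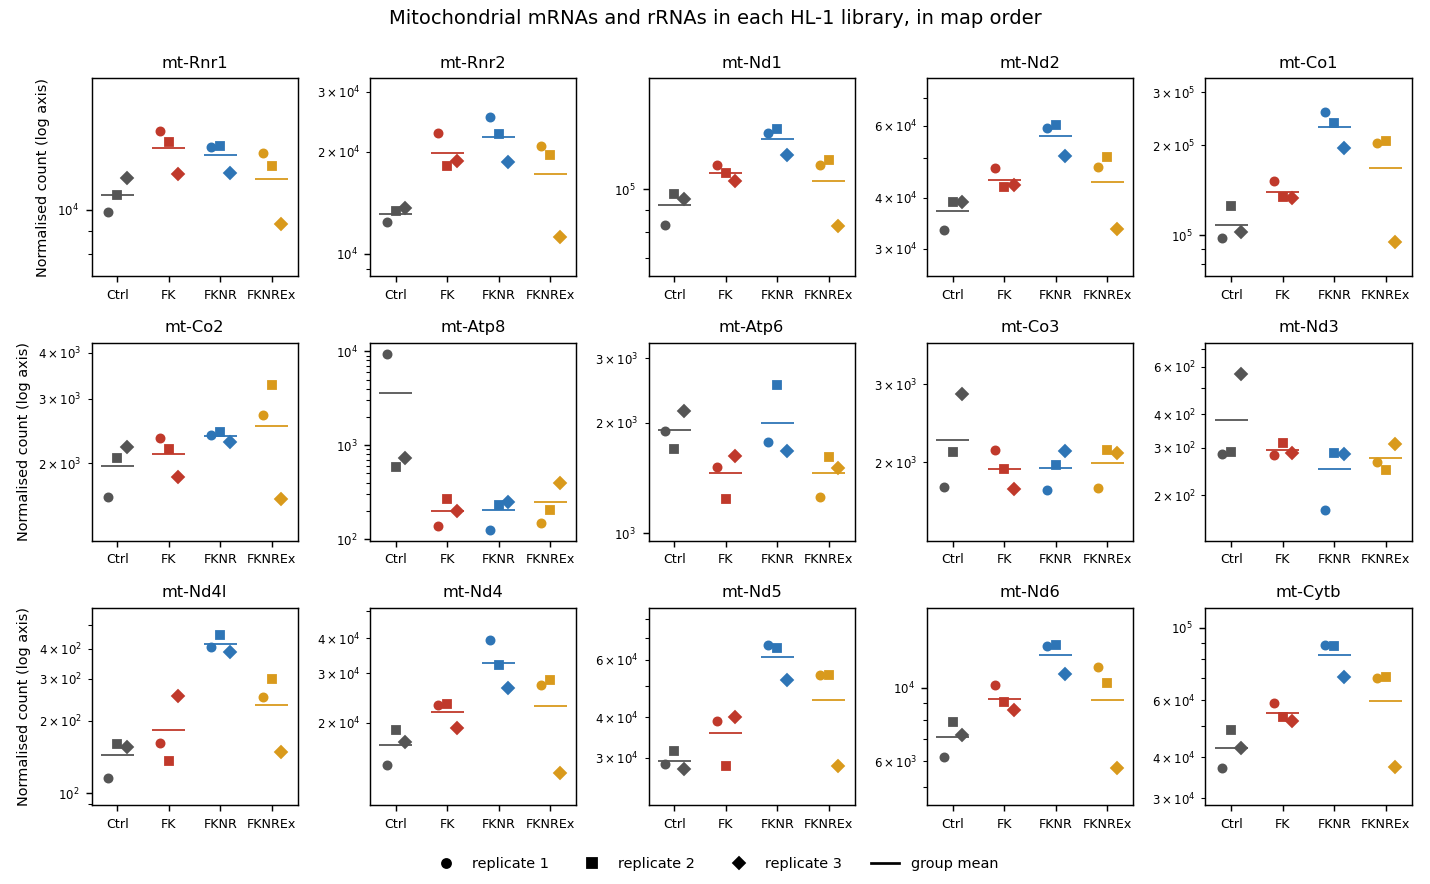
Each panel is 1 of the 13 mRNAs and 2 rRNAs in map order, each point 1 library (marker shape for the replicate number, colour for the group), each line a group mean, and the vertical axis the normalised count on a log scale. In 11 panels (all but mt-Atp8, mt-Atp6, mt-Co3 and mt-Nd3) the third FKNREx library lies below the other FKNREx libraries and near Ctrl, and in the mt-Atp8 panel the first Ctrl library is at 9401.

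Complex I (NADH:ubiquinone oxidoreductase) takes electrons from NADH, and 7 of its core membrane subunits are encoded by mitochondrial DNA. Below, a normalised count is a count scaled by the library's total over tested genes and its TMM factor to the mean library size. A change is a log2 fold change ± SE from edgeR with 3 libraries a group. The most abundant of the 7 per length was mt-Nd1 (MT:2751-3707, plus strand), at 113784 normalised counts per kb. Its normalised counts were 82912, 97838 and 95306 in Ctrl, 113325, 109013 and 104587 in FK, 134136, 137275 and 119372 in FKNR and 113857, 116413 and 82668 in FKNREx. All FK libraries lay above all Ctrl libraries, and all FKNR libraries lay above all FK libraries. The change was 0.24 ± 0.10 in FK against Ctrl (adjusted p = 0.105, edgeR), 0.26 ± 0.10 in FKNR against FK (adjusted p = 0.0788) and 0.50 ± 0.10 in FKNR against Ctrl (adjusted p = 0.0099), the last short of the fold limit.

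For mt-Nd2 (MT:3914-4951, plus strand), the next mRNA downstream, the normalised counts were 33402, 38994 and 38939 in Ctrl, 47271, 42442 and 42941 in FK, 59148, 60195 and 50545 in FKNR and 47399, 50289 and 33581 in FKNREx. The groups Ctrl, FK and FKNR again did not overlap. The gene rose by 0.61 ± 0.12 in FKNR against Ctrl (adjusted p = 0.00942, edgeR), just past the fold limit, and the FKNR against FK change was 0.36 ± 0.12 (adjusted p = 0.0351).

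Larger changes were seen for mt-Nd5 (MT:11742-13565, plus strand), which encodes the subunit at the far end of the membrane arm. Its normalised counts were 28658, 31429 and 27738 in Ctrl, 38799, 28271 and 39897 in FK, 66871, 65399.6 and 51879 in FKNR and 53812, 53834 and 28159 in FKNREx. The FKNR libraries stood above all Ctrl and FK libraries, while FK replicate 2 was among the Ctrl values and the other FK libraries were above them. mt-Nd5 rose by 0.78 ± 0.19 in FKNR against FK (adjusted p = 0.00741, edgeR) and by 1.07 ± 0.19 in FKNR against Ctrl (adjusted p = 0.00909), and its change in FK against Ctrl was 0.28 ± 0.19 (adjusted p = 0.304).

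mt-Nd4l and mt-Nd4 share 1 bicistronic mRNA, with the 7 overlapping bases shown above, but mt-Nd4l had far fewer counts. The normalised counts of mt-Nd4 (MT:10167-11544, plus strand) were 14193, 18833 and 17009 in Ctrl, 23206, 23348 and 19100.2 in FK, 39472, 32200.4 and 26576 in FKNR and 27199, 28309.9 and 13193 in FKNREx. Those of mt-Nd4l (MT:9877-10173, plus strand) were 116, 161 and 155 in Ctrl, 162, 137 and 253 in FK, 408, 455 and 389 in FKNR and 252, 300.2 and 148 in FKNREx. For both genes the FKNR libraries lay above all others in Ctrl and FK. mt-Nd4l rose by 1.18 ± 0.23 in FKNR against FK (adjusted p = 0.00183, edgeR) and by 1.53 ± 0.24 in FKNR against Ctrl (adjusted p = 0.00729), or 2.89-fold. mt-Nd4 had changes of 0.58 ± 0.22 (adjusted p = 0.0559) and 0.97 ± 0.22 (adjusted p = 0.0115), which missed the call in both comparisons. The count of mt-Nd4l as a percent of that of mt-Nd4 was 0.815, 0.853 and 0.912 in Ctrl, 0.697, 0.5848 and 1.32 in FK, 1.03, 1.41 and 1.46 in FKNR and 0.927, 1.06 and 1.12 in FKNREx, with FKNR above Ctrl and FK overlapping both.

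mt-Nd6 is the only mRNA on the other strand (MT:13552-14070, minus strand). Its normalised counts were 6178, 7869 and 7208 in Ctrl, 10181, 9067 and 8564 in FK, 13386, 13431 and 11005 in FKNR and 11543, 10321 and 5722 in FKNREx. Ctrl, FK and FKNR did not overlap, and the change was 0.83 ± 0.18 in FKNR against Ctrl (adjusted p = 0.0111, edgeR). The strand setting of the counting is not given in the sources used here, so reads of mt-Nd6 and of RNA from the opposite strand of the same stretch cannot be told apart. mt-Nd3 (MT:9459-9806, plus strand) was the exception in complex I, with normalised counts of 286, 291 and 564 in Ctrl, 283, 312 and 287 in FK, 177, 288 and 285 in FKNR and 267, 249 and 310.5 in FKNREx. Ctrl replicate 3 was the highest library and FKNR replicate 1 the lowest, the groups overlapped, and the change in FKNR against Ctrl was -0.59 ± 0.23 (adjusted p = 0.0702).

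Complex III (cytochrome bc1) has 1 mitochondrially encoded subunit, cytochrome b, from mt-Cytb (MT:14145-15288, plus strand). Its normalised counts were 37012, 48423 and 42795 in Ctrl, 58777, 53385 and 51576 in FK, 88705, 88113 and 70428 in FKNR and 70228, 70891 and 37322 in FKNREx. Every FK library was above every Ctrl library, and every FKNR library was above every FK library, with FKNREx replicates 1 and 2 at the level of the lowest FKNR library. mt-Cytb rose by 0.95 ± 0.18 in FKNR against Ctrl (adjusted p = 0.00932, edgeR), and its changes were 0.59 ± 0.18 in FKNR against FK (adjusted p = 0.0229) and 0.35 ± 0.18 in FK against Ctrl (adjusted p = 0.17).

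Complex IV (cytochrome c oxidase), which passes electrons to oxygen, has its catalytic core from mt-Co1, mt-Co2 and mt-Co3. mt-Co1 (MT:5328-6872, plus strand) held more counts than any other mitochondrial gene. Its normalised counts were 98026, 124657 and 102230.3 in Ctrl, 151064, 133566 and 133015 in FK, 257139.6, 236621 and 195923 in FKNR and 203969.9, 205687 and 94736 in FKNREx. It rose between Ctrl and FKNR by 1.09 ± 0.21 (adjusted p = 0.00932, edgeR) or 2.12-fold, and every FKNR library exceeded every FK library. In FKNR against FK the change was 0.72 ± 0.21 (adjusted p = 0.0174), and in FK against Ctrl it was 0.36 ± 0.21 (adjusted p = 0.221).

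For mt-Co2 and mt-Co3 no comparison passed the call. The normalised counts of mt-Co2 (MT:7013-7696, plus strand) were 1617, 2069 and 2215 in Ctrl, 2343, 2187 and 1831 in FK, 2386, 2436 and 2281 in FKNR and 2711, 3266 and 1599 in FKNREx, with FKNR above Ctrl and with Ctrl replicate 1 and FKNREx replicate 3 lowest. Those of mt-Co3 (MT:8607-9390, plus strand) were 1759, 2116 and 2858 in Ctrl, 2129, 1934 and 1744 in FK, 1732, 1972 and 2125 in FKNR and 1749, 2131 and 2100.1 in FKNREx, with Ctrl replicate 3 highest and the other libraries intermingled. In FKNR against Ctrl the changes were 0.27 ± 0.19 for mt-Co2 (adjusted p = 0.298, edgeR) and -0.21 ± 0.14 for mt-Co3 (adjusted p = 0.286).

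The ATP synthase makes ATP from the proton gradient, and 2 of its membrane subunits are mitochondrially encoded, on 1 bicistronic mRNA with overlapping reading frames. For mt-Atp8 (MT:7766-7969, plus strand) the normalised counts were 9401, 587 and 737 in Ctrl, 136, 264 and 198 in FK, 125, 229 and 251 in FKNR and 149, 203 and 395 in FKNREx. Ctrl replicate 1 lay more than 10 times above the next library, and the other 2 Ctrl libraries still lay above all 9 treated ones. With all libraries the change was -4.16 ± 0.86 in FK against Ctrl (adjusted p = 0.00271, edgeR), -4.13 ± 0.86 in FKNR against Ctrl (adjusted p = 0.00986) and -3.85 ± 0.83 in FKNREx against Ctrl (adjusted p = 0.00846). Without Ctrl replicate 1 the changes shrank to -1.73, -1.70 and -1.42 and the gene remained called, with adjusted p of 0.00216, 0.00553 and 0.00966. Over the 22 alternatives its adjusted p ran from 1.5e-11 to 0.0229, 9.61e-10 to 0.0512 and 4.33e-10 to 0.0502 in the 3 comparisons, with a call in 18, 7 and 11 of the 21 that gave an adjusted p. DESeq2 gave it none. All 3 comparisons share the same Ctrl libraries.

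mt-Atp6 (MT:7927-8607, plus strand), the neighbour on the same mRNA, had normalised counts of 1901, 1695 and 2157 in Ctrl, 1519.9, 1240.0 and 1626 in FK, 1773, 2540.1 and 1678 in FKNR and 1253, 1615 and 1511 in FKNREx. Ctrl replicate 1 was not raised in mt-Atp6. All FK libraries lay below all Ctrl libraries, FKNR replicate 2 was the highest of all 12, and the changes were -0.39 ± 0.15 in FK against Ctrl (adjusted p = 0.0679, edgeR), 0.45 ± 0.15 in FKNR against FK (adjusted p = 0.0348) and 0.06 ± 0.15 in FKNR against Ctrl (adjusted p = 0.795).

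The rRNAs of the mitochondrial ribosome are transcribed ahead of the mRNAs on the plus strand. The normalised counts of the small-subunit 12S rRNA mt-Rnr1 (MT:70-1024, plus strand) were 9896, 10741 and 11707 in Ctrl, 14871, 14053 and 11969.6 in FK, 13677, 13799.5 and 12039 in FKNR and 13316, 12448 and 9307 in FKNREx. Those of the large-subunit 16S rRNA mt-Rnr2 (MT:1094-2675, plus strand) were 12370.2, 13329 and 13639 in Ctrl, 22647, 18149.6 and 18737 in FK, 25291, 22488 and 18698 in FKNR and 20826, 19499.9 and 11171 in FKNREx. For both, all FK and all FKNR libraries lay above all Ctrl libraries, and FK and FKNR overlapped. In FK against Ctrl the changes were 0.34 ± 0.11 (adjusted p = 0.043, edgeR) and 0.60 ± 0.17 (adjusted p = 0.02), both past 0.05 and short of a call, while in FKNR against FK they were -0.05 ± 0.11 (adjusted p = 0.78) and 0.16 ± 0.17 (adjusted p = 0.521). The count of mt-Rnr2 over that of mt-Rnr1 was 1.25, 1.24 and 1.17 in Ctrl, 1.52, 1.29 and 1.57 in FK, 1.85, 1.63 and 1.55 in FKNR and 1.56, 1.57 and 1.2 in FKNREx. Every FK and FKNR library was above every Ctrl library in this ratio, and FKNREx replicate 3 was among the Ctrl libraries.

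The tRNA genes together held 503 to 1379 counts per library, or at most 0.00463% of all counts. The 5 most abundant were those for proline, asparagine, leucine, histidine and cysteine. Of the tRNAs described, mt-Tp, mt-Tn, mt-Tc and mt-Ty lie on the minus strand, so the strand limit given for mt-Nd6 holds for them too. For mt-Tp the normalised counts were 174, 186 and 154 in Ctrl, 164, 182 and 164 in FK, 198, 237 and 202 in FKNR and 211, 181 and 176 in FKNREx, and for mt-Tn they were 107, 84.8 and 86.3 in Ctrl, 91.9, 176 and 129 in FK, 163, 121 and 109.7 in FKNR and 183, 180.0 and 64.7 in FKNREx. In neither did a comparison pass an adjusted p of 0.05. For mt-Tl1 they were 46.9, 78.5 and 60.6 in Ctrl, 166, 105 and 138 in FK, 140.4, 159.6 and 115 in FKNR and 192, 188 and 54.4 in FKNREx. All FK and FKNR libraries were above Ctrl for mt-Tl1, with changes of 1.13 ± 0.36 in FK against Ctrl (adjusted p = 0.0345, edgeR) and 1.14 ± 0.36 in FKNR against Ctrl (adjusted p = 0.0351).

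For mt-Th the normalised counts were 43.8, 58.6 and 40.1 in Ctrl, 36.0, 68.3 and 85.3 in FK, 151, 119.7 and 107 in FKNR and 154, 120.2 and 31.9 in FKNREx, and for mt-Tc they were 37.5, 49.6 and 62.7 in Ctrl, 64.0, 71.6 and 102 in FK, 108, 87.8 and 83.9 in FKNR and 120.3, 103 and 41.3 in FKNREx. FKNR lay wholly above Ctrl for both, and mt-Th changed by 1.39 ± 0.42 in that comparison (adjusted p = 0.0295, edgeR). Outside the 5 most abundant, chosen after their values were seen, mt-Tw ran at 6.25, 22.6 and 11.3 in Ctrl, 58.1, 42.5 and 34.95 in FK, 43.6, 42.2 and 36.9 in FKNR and 55.8, 38.1 and 12.2 in FKNREx, with a change of 1.72 ± 0.48 in FK against Ctrl (adjusted p = 0.0173), and mt-Tl2 changed by 1.17 ± 0.33 in FKNR against FK (adjusted p = 0.0151). mt-Ty and mt-Tw changed by 1.74 ± 0.54 (adjusted p = 0.0329) and 1.57 ± 0.49 (adjusted p = 0.032) in FKNR against Ctrl. No tRNA was called in the main edgeR fit. DESeq2 called mt-Tw in FK against Ctrl (5.18% of all genes) and in FKNR against Ctrl (2.32%). It called mt-Tl2 in FKNR against FK (5.40%). Without FKNREx replicate 3, edgeR called mt-Tl1 and mt-Tw in FK against Ctrl (4.44%) and mt-Tl2 in FKNR against FK (4.68%). That fit called mt-Tl1 in FKNR against Ctrl (0.503%) and mt-Tl1, mt-Th and mt-Ty in FKNREx against Ctrl (1.20%). Some other settings called tRNAs too.

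**Figure D3:**
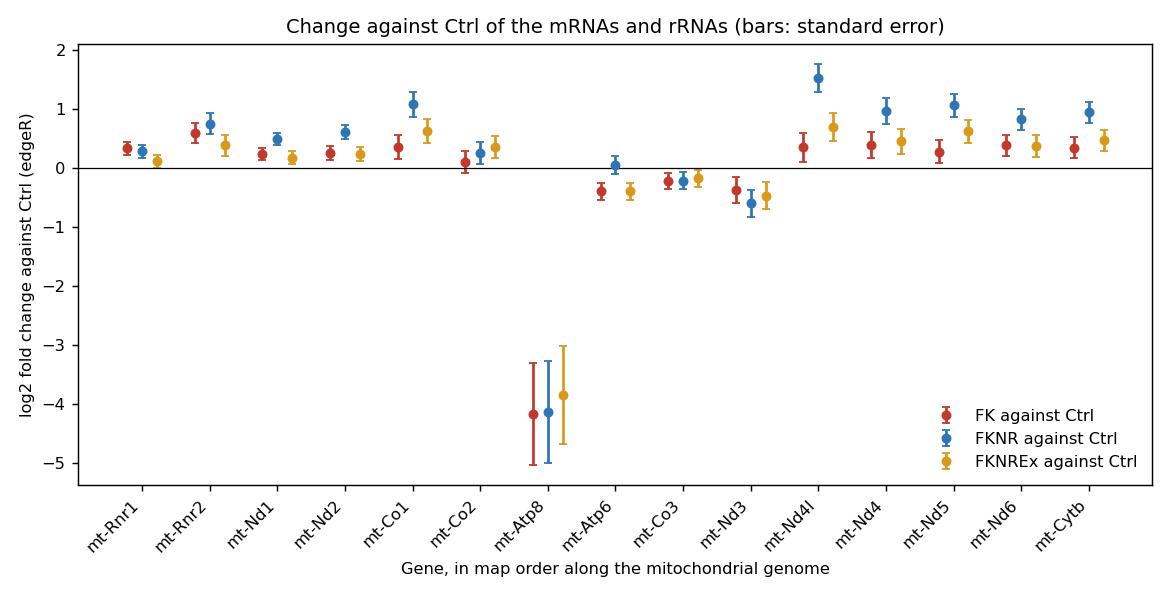
Points are log2 fold changes against Ctrl from edgeR for the 13 mRNAs and 2 rRNAs in map order, bars are standard errors, and colours are the 3 treated groups. From mt-Co1 on, FKNR reaches 1.09 for mt-Co1, 1.53 for mt-Nd4l and 1.07 for mt-Nd5, with mt-Co2 to mt-Nd3 between -0.59 and 0.27 apart from mt-Atp8 at -4.13.

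Along the plus strand the change in FKNR against Ctrl was not even. In map order it was 0.29 for mt-Rnr1, 0.76 for mt-Rnr2, 0.50 for mt-Nd1, 0.61 for mt-Nd2, 1.09 for mt-Co1, 0.27 for mt-Co2, -4.13 for mt-Atp8, 0.06 for mt-Atp6, -0.21 for mt-Co3, -0.59 for mt-Nd3, 1.53 for mt-Nd4l, 0.97 for mt-Nd4, 1.07 for mt-Nd5 and 0.95 for mt-Cytb. The same unevenness can be read within each library, where depth and scaling cancel. The ratio of mt-Co1 to mt-Nd1 counts was 1.18, 1.27 and 1.07 in Ctrl, 1.33, 1.23 and 1.27 in FK, 1.92, 1.72 and 1.64 in FKNR and 1.79, 1.77 and 1.15 in FKNREx. All FKNR libraries were above all Ctrl and FK libraries, FKNREx replicates 1 and 2 were within the FKNR range, and FKNREx replicate 3 was within the Ctrl range.

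The ratio of mt-Cytb to mt-Nd1 was also highest in FKNR, where every library was above all Ctrl and FK libraries, with 0.446, 0.495 and 0.449 in Ctrl, 0.519, 0.490 and 0.493 in FK, 0.661, 0.642 and 0.590 in FKNR and 0.617, 0.609 and 0.451 in FKNREx. mt-Nd2 to mt-Nd1 moved less, with 0.403, 0.399 and 0.409 in Ctrl, 0.417, 0.389 and 0.411 in FK, 0.441, 0.439 and 0.423 in FKNR and 0.416, 0.432 and 0.406 in FKNREx. FKNREx replicate 3 was the lowest of its group in all 3 ratios. Such ratios show unequal change and not which transcript moved.

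Over the 12 libraries, the log2 normalised counts of mt-Co1 correlated most with those of mt-Cytb (Pearson's r = 0.99), mt-Nd4 (0.97), mt-Nd6 (0.97) and mt-Nd5 (0.96). The points share the libraries, their depth and their groups, so these values are a description. The genes least like it were mt-Atp6 at 0.07, mt-Co3 at -0.34, mt-Nd3 at -0.64 and mt-Atp8 at -0.66.

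The genes that stood apart in level and in pattern lie next to each other on the map, and most have near-identical copies in the nuclear genome. On chromosome 1, 6 such copies stand in a row (chr1:24611535-24616197 from Gm28439 to Gm29216). None of the 6 is a copy of mt-Nd4l, whose closest match was the nuclear transcript Gm10222 (294 bases, 100% identity). Each mitochondrial gene was compared with 141730 other annotated transcripts in windows of 150 bases. The share of windows found letter for letter in such a transcript was 99.4% for mt-Co2, 99.4% for mt-Atp6, 99.8% for mt-Co3, 97.0% for mt-Nd3 and 97.97% for mt-Nd4l. It was 59.1% for mt-Nd4 and 23.6% for mt-Co1, and 0% for mt-Atp8, mt-Nd1, mt-Nd2, mt-Nd5, mt-Nd6, mt-Cytb and both rRNAs.

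The 5 genes at 97% or more had 823 to 3282 normalised counts per kb, mt-Atp8 had 5178, and the others at 0% had 11423 to 113784. No gene of the first set reached the level per length of any mRNA or rRNA outside it. A read from a shared stretch has no single place of origin, and the handling of such reads is not given in the sources used here, so the low levels of mt-Co2, mt-Atp6, mt-Co3, mt-Nd3 and mt-Nd4l are uncertain, and what part the copies have in them was not tested. The copies were counted too, at 539 normalised counts on average for Gm29216 up to 3422 for Gm10925. Gm28439, identical to mt-Nd4 over 876 bases, changed by 1.04 ± 0.21 in FKNR against Ctrl (adjusted p = 0.00942, edgeR), beside 0.97 for mt-Nd4, while Gm28437, identical to mt-Co3 over 783 bases, had -0.24 ± 0.12 (adjusted p = 0.146), beside -0.21. Gm29216 and Gm28661 were higher in every FKNR library than in any Ctrl library, as were mt-Co1 and mt-Co2 (21.7% of all genes). Not every copy moved like its gene, though these groups overlapped. Gm28438 was at 621, 765 and 787 in Ctrl and 680, 675 and 947 in FKNR, where mt-Nd3 had means of 380 and 250. Gm10925 was at 3940, 3403 and 4375 in Ctrl and 3483, 3427 and 3296 in FKNR, where mt-Atp6 had means of 1918 and 1997.

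**Figure D4:**
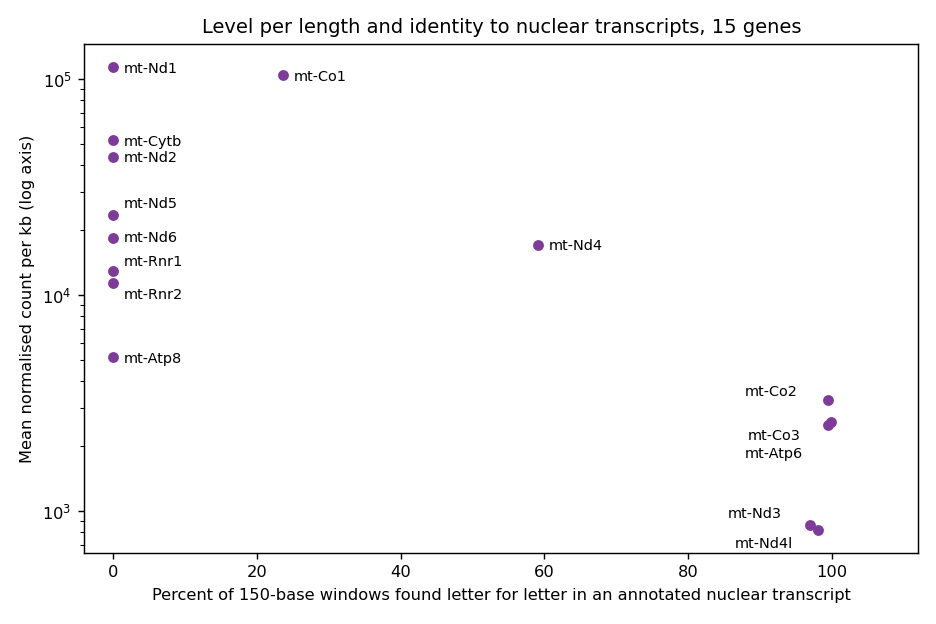
Each point is 1 of the 15 mRNA and rRNA genes, the horizontal axis is the percent of its 150-base windows that occur letter for letter in an annotated nuclear transcript, and the vertical axis (log) is its mean normalised count per kb over 12 libraries. The 5 genes at the right have at most 3282 per kb, and the genes at 0% have 5178 (mt-Atp8) or more.

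Ex527 was added to ask whether the response to NR needs SIRT1. In FKNREx against FKNR 0 of 25 genes were called by edgeR (0.596% of all genes), 10 had an unadjusted p under 0.05 (23.2% of all genes), and DESeq2 called 1, mt-Nd4l (1.05% of all genes). At an adjusted p under 0.05 mt-Nd4l was lower, with a change of -0.83 ± 0.22 (adjusted p = 0.0389), and 0 genes were higher, where 3.31 and 3.86% of all genes were lower and higher. All FKNREx libraries were below all FKNR libraries for 4 genes, mt-Nd1, mt-Nd2, mt-Nd4l and mt-Atp6 (15.2% of all genes). The changes were -0.45 ± 0.21 for mt-Co1 (adjusted p = 0.204, edgeR), -0.47 ± 0.18 for mt-Cytb (0.127) and -0.44 ± 0.19 for mt-Nd5 (0.18). Without FKNREx replicate 3 they were -0.18, -0.24 and -0.20, and the change of mt-Nd4l was -0.60, so each difference was smaller without that library.

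In FKNREx against FK 0 genes were called by edgeR (1.27% of all genes) and 0 by DESeq2 (1.63%), and 2 had an unadjusted p under 0.05 (27.1%). Without FKNREx replicate 3 edgeR still called 0 (1.34% of all genes). In that fit mt-Cytb changed by 0.36, against 0.12 with the library, mt-Co1 by 0.55 and mt-Nd5 by 0.59. The changes of mt-Nd1 and mt-Rnr2 were small in it, at 0.071 and 0.015, and both were below 0 with the library. With all libraries no mRNA changed by more than 0.35, and the 2 rRNAs changed by -0.22 and -0.21. Over the 22 alternatives (edgeR or DESeq2) the lowest adjusted p was 0.0058 for mt-Co1 and 0.012 for mt-Nd5. Neither was called in any of them. In FKNREx against Ctrl 1 was called, mt-Atp8, against 1.42% of all genes, with 4 higher and 1 lower at an adjusted p under 0.05 (8.6 and 7.68% of all genes) and 2 wholly below Ctrl, mt-Atp8 and mt-Atp6 (18.8%). That call was lost without FK replicate 1, any 1 FKNR replicate, or any 1 FKNREx replicate, where 0.637 to 1.25% of all genes were called. Without FKNREx replicate 3, 9 other genes were called in FKNREx against Ctrl (1.199% of all genes), all higher, among them mt-Co1 at 0.91 against 0.63 with it, mt-Nd5 at 0.87 against 0.63, and mt-Cytb at 0.71 against 0.48. With 2 libraries at the level of the lowest FKNR library and 1 at the level of Ctrl, the FKNREx group spanned the range from Ctrl to FKNR for most mRNAs.

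For the nuclear genes of the same complexes the median changes had the opposite sign in FKNR against Ctrl. In FKNR against Ctrl, at an adjusted p under 0.05, 25 of 36 tested nuclear subunits of complex I were lower, 8 of 9 of complex III, 11 of 13 of complex IV and 15 of 15 of the ATP synthase, where 12.8% of all tested genes were lower, and none of these lists had a member that was higher. Their median changes were -0.36, -0.37, -0.36 and -0.33 on the log2 scale, beside 0.61 over the 13 mitochondrial mRNAs. The summed CPM of the nuclear complex I subunits was 2521, 2597 and 2876 in Ctrl, 2518, 2790.0 and 2272 in FK, 2050.2, 2236 and 2203 in FKNR and 2465, 2309 and 2473 in FKNREx. All FKNR libraries were below all others, with 1 FK library within the Ctrl range and 2 below it. FKNREx replicate 3 was not apart in this sum.

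Few nuclear subunits were called. The calls of nuclear genes in FKNR against Ctrl, here and below, were lost in the fits named above where 0 of all tested genes were called. Ndufa11, an accessory subunit of complex I, fell in FKNR against Ctrl (log2 fold change -0.61 ± 0.13 (SE), adjusted p = 0.0098, edgeR). In FKNR against FK the muscle isoform Cox6a2 of complex IV fell (log2 fold change -1.64 ± 0.32 (SE), adjusted p = 0.00173, edgeR), from 32.3 ± 2.25 to 10.02 ± 4.18 normalised counts (SD, n = 3), and in FK against Ctrl the muscle isoform Cox7a1 fell (log2 fold change -0.65 ± 0.16 (SE), adjusted p = 0.00946, edgeR).

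Of the proteins that make and read mitochondrial RNA, the ribosomal proteins were the longest list, with 77 tested. At an adjusted p under 0.05, 7 were higher and 5 lower in FK against Ctrl (12.2 and 12.6% of all genes). At the same threshold 41 were lower in FKNR against FK (15% of all genes) and 41 in FKNR against Ctrl (12.8%). In either comparison 0 were higher (13.9 and 11.1% of all genes). Mrpl16 of the large subunit fell in FKNR against FK (log2 fold change -0.61 ± 0.06 (SE), adjusted p = 1.08e-05, edgeR) and Mrps24 of the small subunit in FKNR against Ctrl (log2 fold change -0.59 ± 0.12 (SE), adjusted p = 0.00942, edgeR). Hsd17b10, a subunit of the mitochondrial RNase P that cuts the 5′ ends of tRNAs, fell in FK against Ctrl (log2 fold change -0.61 ± 0.10 (SE), adjusted p = 0.000313, edgeR) and in FKNR against Ctrl (log2 fold change -0.60 ± 0.10 (SE), adjusted p = 0.00729, edgeR). In the list of RNA processing and stability, 7 of 21 genes were higher and 1 lower in FK against Ctrl at an adjusted p under 0.05, 0 were higher and 12 lower in FKNR against FK, and 0 were higher and 3 lower in FKNR against Ctrl. Of all genes 12.2% were higher and 12.6% lower in FK against Ctrl.

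The lists that follow are counted at the same threshold, at which 12.2% of all genes were higher and 12.6% lower in FK against Ctrl, 13.9 and 15% in FKNR against FK, and 11.1 and 12.8% in FKNR against Ctrl. Of 10 transcription genes, among them the polymerase Polrmt and the factor Tfam, 0 passed an adjusted p of 0.05 in FK against Ctrl and in FKNR against Ctrl, and 2 were lower in FKNR against FK. Of 11 replication genes, 3 were higher and 1 lower in FK against Ctrl, 1 higher and 3 lower in FKNR against FK, and 0 in FKNR against Ctrl. Top1mt, the mitochondrial topoisomerase, fell in FKNR against FK (log2 fold change -0.66 ± 0.12 (SE), adjusted p = 0.000788, edgeR). For 6 regulators of mitochondrial genes, 1 was higher in FK against Ctrl and 0 passed in the other 2 comparisons. Of 12 chaperones and proteases, 5 were higher and 1 lower in FK against Ctrl, 9 were lower in FKNR against FK, and in FKNR against Ctrl 3 were lower. Of 9 translation factors 2 were higher and 1 lower in FK against Ctrl, and 1 higher and 3 lower in FKNR against FK. In FKNR against Ctrl 0 translation factors were higher and 2 lower. Of 17 tRNA synthetases 5 were higher and 0 lower in FK against Ctrl, 0 higher and 3 lower in FKNR against FK, and 1 higher and 0 lower in FKNR against Ctrl.

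**Figure D5:**
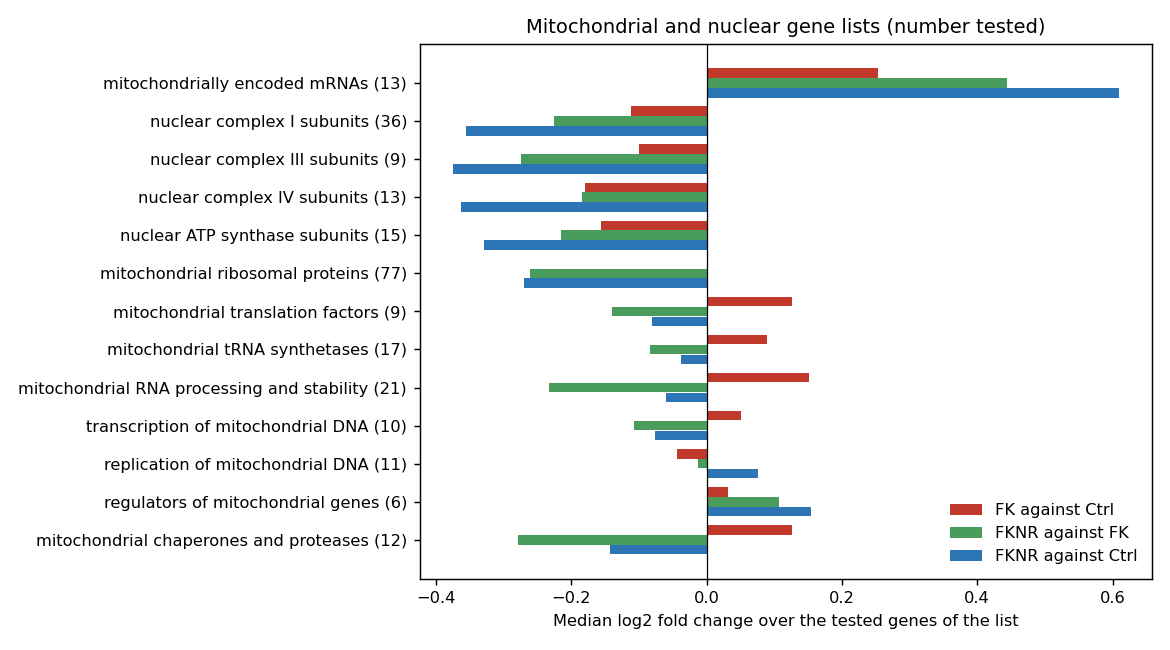
Bars are the median log2 fold change (edgeR) over the tested genes of each list, with the number tested in brackets, for FK against Ctrl, FKNR against FK and FKNR against Ctrl, which share groups. The 13 mitochondrial mRNAs have medians of 0.25, 0.44 and 0.61, and the 4 lists of nuclear subunits lie below 0 in all 3 comparisons.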

How the data were processed

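RNA of 12 HL-1 libraries, 3 in each of Ctrl, FK, FKNR and FKNREx, was poly(A) selected and sequenced by a sequencing company for the authors, who deposited whole read counts per gene with no normalization. The submitters' processing notes name HISAT2, HISAT, TopHat2 and the build mm10. The counting tool, its strand setting and its handling of reads with several places of origin are not given in the sources used here. Heart tissue files were not used here.

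Counts were analysed in R 4.3.3 with edgeR 4.0.16 and limma 3.58.1. Genes were filtered with filterByExpr, libraries were scaled by TMM, and 1 mean per group was fitted over all 12 libraries with a quasi-likelihood test for each of 6 comparisons and Benjamini-Hochberg adjustment over all 14760 tested genes. The SE was the log2 fold change divided by the square root of F. The alternatives were DESeq2 1.42.0, DESeq2 size factors, no TMM, scaling on nuclear genes, 2 other filters, the groups of a comparison alone, a replicate block, counts of the nuclear copies on chromosome 1 added, and leaving out each library. The code was tested on simulated data.

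All mRNAs and rRNAs, the 5 most abundant tRNAs and, of each nuclear list, up to 5 called genes were named. The genes and lists were chosen with earlier results of these data known. Sequences came from GENCODE M21, whose start, end and strand matched those of the count table for all 37 genes. Total counts ran from 21337922 to 35000109, and the number of libraries limited the precision.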

Additional observations from a re-analysis of the deposited data

How the results depend on the processing

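The count of the 25 tested mitochondrial genes that were called depended on the processing, and the causes were not tested beyond what the settings themselves change. With all genes that had a count kept, 4 were called in FK against Ctrl, 6 in FKNR against FK, 14 in FKNR against Ctrl, 1 in FKNREx against FK, 1 in FKNREx against FKNR and 6 in FKNREx against Ctrl, where 2.62, 4.14, 2.71, 0.906, 1.73 and 1.33% of all genes were. At an adjusted p under 0.05 with no minimum fold, the counts were 5, 7, 14, 1, 1 and 5 in the same order, and in FKNREx against FK 6.4% of all genes were higher and 5.82% lower. A minimum average count of 5 gave 1 in FKNR against FK, 0 in FKNR against Ctrl and 0 in FKNREx against Ctrl (4.30, 0 and 1.13% of all genes), and fitting only the 2 groups compared gave 4, 10 and 0 (4.17, 1.40 and 1.51%). DESeq2 gave 1 in FK against Ctrl, 3 in FKNR against FK and 9 in FKNR against Ctrl (5.18, 5.40 and 2.32% of all genes). The 1 in FK against Ctrl was mt-Tw, where the main fit had mt-Atp8. Among the 9 were mt-Nd4, mt-Rnr2, mt-Nd6 and mt-Tw, which the main fit did not call. DESeq2 gave 1 in FKNREx against FKNR and 0 in FKNREx against Ctrl (1.05 and 2.10% of all genes). With Ctrl replicate 1 and FKNREx replicate 3 both left out, a choice made after seeing the data, 2 were called in FK against Ctrl, 4 in FKNR against FK and 5 in FKNREx against Ctrl (4.47, 4.71 and 2.07%). Leaving out 1 library at a time gave 0 to 4 in FK against Ctrl, 0 to 6 in FKNR against FK, 0 to 9 in FKNR against Ctrl and 0 to 9 in FKNREx against Ctrl. The share of counts on mitochondrial genes in each group stayed within 1 SD with protein-coding counts as the denominator. It also did so with the nuclear copies on chromosome 1 added to the mitochondrial counts.

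The replicate numbers are shared by the groups, and with the replicate block 0 were called in FK against Ctrl, 1 in FKNR against FK, 0 in FKNR against Ctrl and 0 in FKNREx against Ctrl, where 4.32, 4.44, 0.0542 and 1.01% of all genes were. Deviations of same-numbered libraries from their group means correlated at -0.29 to 0.14 over 18 pairs. Those of differently numbered libraries correlated at -0.24 to 0.30 over 36 pairs, and 4 of 12 libraries were closest to their own number. With 3 libraries a group, these values cannot tell whether same-numbered wells were handled together.

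Under the alternatives 56 single-gene values, in 21 pairs of gene and comparison, changed sign, each with an adjusted p of 0.152 or more where one was given. Leaving out 1 library at a time, mt-Co2 ran from -0.020 to 0.21 and mt-Nd3 from -0.54 to 0.028 on the log2 scale in FK against Ctrl. In FKNR against FK mt-Rnr1 ran from -0.15 to 0.013, mt-Co3 from -0.077 to 0.084 and mt-Atp8 from -0.18 to 0.29, and in FKNR against Ctrl mt-Atp6 ran from -0.15 to 0.17. In FKNREx against FK the ranges were -0.15 to 0.071 for mt-Nd1, -0.020 to 0.36 for mt-Cytb, -0.13 to 0.14 for mt-Nd2, -0.11 to 0.33 for mt-Nd4, -0.37 to 0.015 for mt-Rnr2, -0.21 to 0.23 for mt-Nd6, -0.033 to 0.13 for mt-Co3, -0.11 to 0.094 for mt-Atp6 and -0.18 to 0.56 for mt-Atp8. In FKNREx against FKNR they were -0.13 to 0.32 for mt-Co2, -0.039 to 0.11 for mt-Co3, -0.21 to 0.53 for mt-Atp8 and -0.059 to 0.24 for mt-Nd3, and in FKNREx against Ctrl -0.33 to 0.039 for mt-Co3.

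With both libraries left out, the values that changed sign were -0.019 for mt-Co2 in FK against Ctrl, -0.0041 for mt-Co3 in FKNR against FK, -0.19 for mt-Atp8 in FKNREx against FKNR and, in FKNREx against FK, 0.073 for mt-Nd1, 0.14 for mt-Nd2, 0.017 for mt-Rnr2, 0.23 for mt-Nd6, -0.0013 for mt-Co3 and -0.18 for mt-Atp8. With the counts of the nuclear copies on chromosome 1 added, they were -0.043 for mt-Co3 and 0.042 for mt-Nd3 in FKNR against FK, -0.12 for mt-Atp6 in FKNR against Ctrl, -0.073 for mt-Co3 in FKNREx against FK, and -0.030 for mt-Co3 and -0.10 for mt-Nd3 in FKNREx against FKNR. Copies were added to mt-Co1, mt-Co2, mt-Atp6, mt-Co3, mt-Nd3 and mt-Nd4 only. The counts of mt-Nd4l, whose match Gm10222 lies outside that row, were left as they were. For FKNR against FK, mt-Co3 was -0.020 and mt-Atp8 -0.000401 on library totals without TMM, and mt-Co3 was -0.00814 with the minimum average count and -0.00862 with the replicate block. In FKNREx against FK mt-Atp6 was 0.0040 with no filter. Low counts per library limit the tRNAs, and reads shared with nuclear copies limit mt-Co2, mt-Atp6, mt-Co3, mt-Nd3 and mt-Nd4l.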
